A study of Mus musculus with 48 samples.

Results

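In murine erythroleukemia (MEL) cells under 3 inducers of differentiation, 79 cDNA clones were selected on their log2 intensities at 6 and 36 h, which were higher at 36 h in a readily inducible and in a poorly inducible cell line by about the same amount. They were found among 19817 clones with a value in all 12 conditions, of 22171 clones in the files. MEL cells are mouse red-cell precursors transformed by a leukemia virus and held before terminal differentiation. Inducers of differentiation make them accumulate hemoglobin and leave the cell cycle, and variants that respond poorly have long been used to ask which changes accompany differentiation and which accompany exposure to the inducer. Dimethyl sulfoxide (DMSO) and hexamethylene bisacetamide (HMBA) are polar compounds of this use, and trichostatin A (TSA) inhibits histone deacetylases.

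The cells labelled HD-MEL (high inducibility) and LD-MEL (low inducibility) were both clones of the line T-3-Cl-2-0.fl, so each line stands for a single clone. Both were kept for 6, 12, 24 or 36 h with 1% DMSO, 3 mM HMBA or 15 nM TSA, and the labels put no untreated cells in this set, so that the effects of a drug and of time in culture cannot be told apart. For each drug and time, RNA of HD cells and RNA of LD cells were hybridised together on 4 technical arrays, 48 arrays in all, with dye swaps per the design text. The 4 arrays of a condition count here as 1 sample of each line, and both lines were read from the same spots of the same arrays. RNA of whole cultures was compared, so that more cells with a transcript and more transcript per cell cannot be told apart.

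Each clone was given by its plate and well ID. The files do not pair these IDs with genes, and the reference tables used here did not hold them, so no gene, pathway or sequence is given and the erythroid identity of the cells was not checked against marker genes. In each comparison at most 2 clones in each direction are named as examples.

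The selection used only the arrays of 6 and 36 h. On log2 intensity minus the median of each deposited file, a member had to be higher at 36 h by at least 1, a 2-fold difference, in the mean over the drugs in both lines. It also had to be higher under each drug in both lines and to differ between lines by less than 0.6. The least rise of 1 was met by 516 clones in HD cells and by 403 in LD cells. Both were met by 117 clones, of which 96 were also higher under each drug in both lines and 79 passed the limit on the line difference. The same rule with every sign turned, for clones lower at 36 h, also selected 79.

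As a description of what the rule chose, the members' mean difference from 6 to 36 h had a median of 1.24 (range 1.00 to 3.29, log2) in HD cells. In LD cells the median was 1.17 (1.00 to 3.09). Most members lay close to the limit, with an upper quartile of 1.43 in HD cells and of 1.36 in LD cells. The smaller of both line differences was 1.002 in the member nearest to the limit of 1 and 0.999 in the nearest clone outside. The HD rise and the LD rise differed by 0.58 in the member nearest to the limit of 0.6 and by 0.62 in the nearest clone outside.

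All later values are on another scale. Ratios were normalized within each part of each array by loess, and mean intensities were normalized between arrays by quantiles. The fits needed a value on both pairs of arrays, arrays 1 and 2 and arrays 3 and 4, in every condition. This left 66 of the 79 members and 18494 clones in all. On this scale 49 of the 66 members were still higher by at least 1 in both lines at 36 h, against 84 of the 18494 clones.

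Which values belong to HD and which to LD cells is likely and not settled. The labels name HD as target on every array, but the raw ratios of arrays 1 and 2 and those of arrays 3 and 4 correlated at -0.82 to -0.38 across clones, and after loess at -0.52 to 0.018. Tests of a single line or of a difference between lines are therefore also given with arrays 3 and 4 turned. A ratio that both pairs share as labelled largely cancels when turned, so the turned values cannot settle the direction. The mean of both lines does not depend on this on the normalized scale, and its correlation between both pairs of arrays was 0.961 to 0.984 across clones.

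The course of the members is given as a description, since it starts and ends on arrays that the selection used. From 6 h, the median over the 66 members of the difference in the mean of drugs and lines was 0.23 at 12 h, 0.75 at 24 h and 1.21 at 36 h (log2). The corresponding medians over the 18494 clones were 0.0052, -0.030 and -0.030. In 55 of the 66 members each time was above the one before, against 12.2% of all tested clones, but the selection for a higher end than start favours this. By 24 h 53 members had reached 50 percent of the difference at 36 h, whereas 4 had done so by 12 h. The largest of the steps ended at 12 h in 12 members, at 24 h in 34 and at 36 h in 20. The first step spans 6 h and the later ones 12 h each, so these counts do not compare rates.

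The 48 members listed on all 48 arrays show the spread between technical arrays. Under DMSO, the median of these 48 clones in the mean of both lines was between 7.67 and 7.74 on the 4 arrays of 6 h, between 7.88 and 8.16 at 12 h, between 8.63 and 8.92 at 24 h and between 8.73 and 9.17 at 36 h. Under HMBA these ranges were 7.55 to 8.11, 7.74 to 8.28, 8.45 to 9.03 and 8.70 to 9.35 in the same order. Under TSA they were 8.0 to 8.24, 8.22 to 8.56, 8.49 to 9.22 and 9.44 to 9.90. Arrays of 12 and of 24 h thus did not overlap under DMSO or HMBA, and overlapped under TSA. Arrays of 24 and of 36 h overlapped under DMSO and HMBA and did not under TSA.

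**Figure D1:**
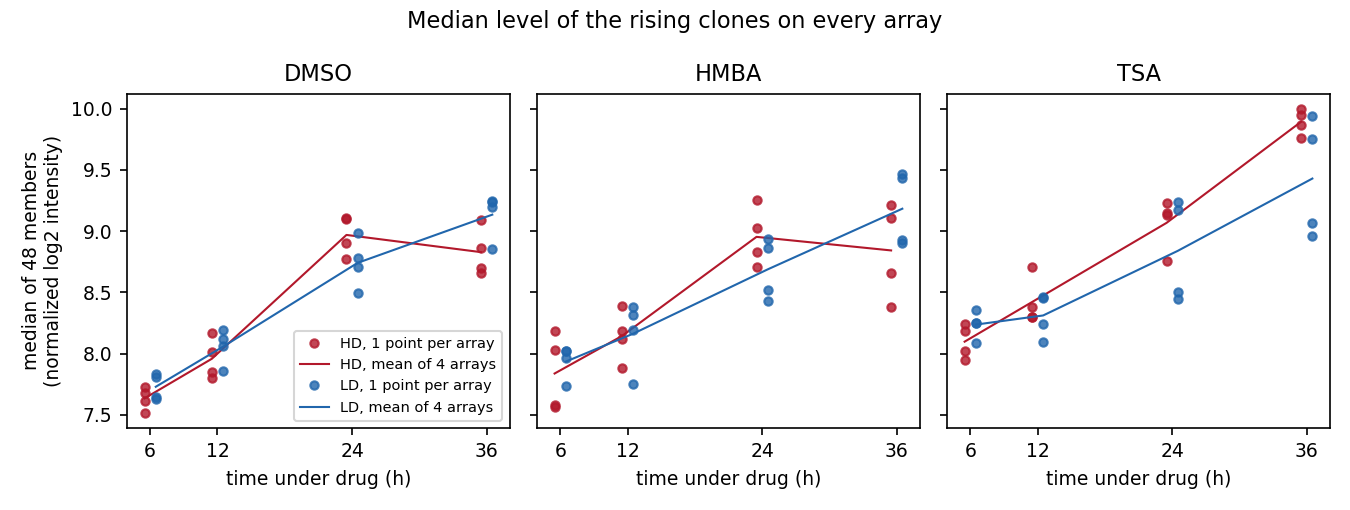
Median normalized log2 intensity (vertical axis) of the 48 members listed on every array, against hours under drug (horizontal axis), for DMSO, HMBA and TSA. Each point is 1 of 4 technical arrays (HD red, LD blue) and lines join the means of the arrays. In DMSO the array medians of HD cells lay between 7.52 and 7.73 at 6 h and between 8.66 and 9.09 at 36 h. Those of LD cells lay between 7.63 and 7.84 at 6 h and between 8.85 and 9.25 at 36 h.

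Whether the difference in time holds on arrays that the selection did not use was asked with the 12 and 24 h arrays. The 66 members were higher at 24 h by a median of 0.57 (range -0.31 to 1.79, log2) in the mean of both lines and of the drugs, while the median of all 18494 clones was -0.029. The estimate was above 0 in 63 of the 66 members and in 44.6% of all clones. At an unadjusted p under 0.05 in limma, 48 of the 66 members were higher at 24 h against 4.15% of all clones, and 0 were lower against 9.54% of all clones. No single clone passed Benjamini-Hochberg adjustment over all clones at 0.05, neither among the members (0 of 66; lowest adjusted p 0.151) nor among the 18494 (0% higher and 0% lower). The median 95% interval of a member's difference was 0.38 to either side.

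**Figure D2:**
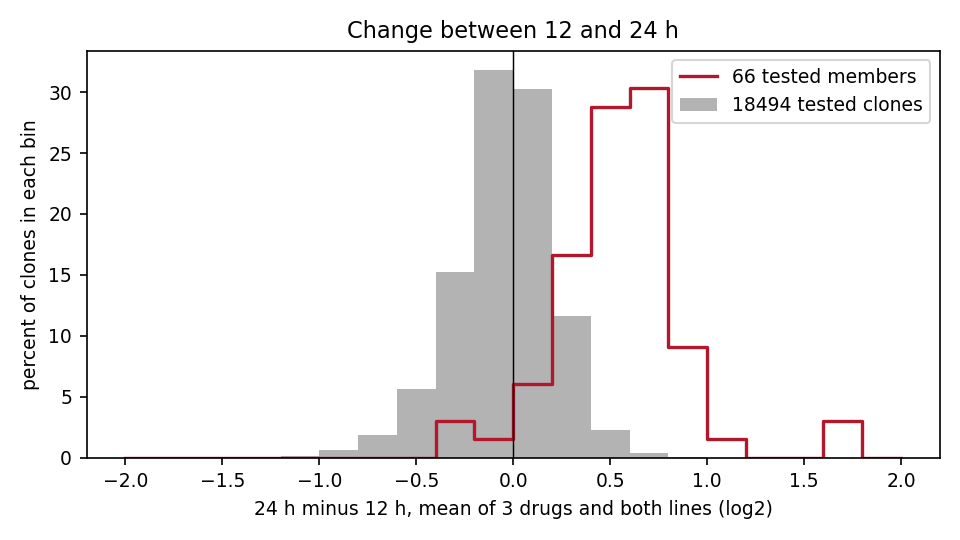
Distribution of the difference between 24 h and 12 h (horizontal axis, log2, mean of 3 drugs and both lines) as percent of clones per bin (vertical axis), for all 18494 tested clones (grey bars) and for the 66 tested members (red line). The members' median was 0.57 and that of all clones -0.029.

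With each drug left out in turn, calls appeared only without HMBA. Then 18 members passed the adjusted threshold upwards in the mean of both lines (0.319% of all clones, with 1.79% called lower). In LD cells 22 did so (0.649% of all clones, with 3.11% called lower), and in HD cells 0 did (0% of all clones). Without the second array of each condition, 3 members passed upwards in the mean of both lines (0.0293% of the clones fitted), 2 in HD cells (0.0176%) and 1 in LD cells (0.0117%).

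The pattern was seen in each line. In HD cells the members' median difference was 0.61 (log2). Of 66 members, 63 had an estimate above 0 against 43.7% of all clones. At an unadjusted p under 0.05, 51 were higher in HD cells against 4.81%, and 0 were lower against 8.77%. In LD cells the median was 0.44, with 60 members above 0 against 45.4%. Here 37 were higher at an unadjusted p under 0.05 against 2.75%, and 0 were lower against 8.34%. No member and no other clone passed the adjusted threshold in either line (0% of all clones). With arrays 3 and 4 turned, the median was 0.55 in HD cells with 48 members higher at an unadjusted p under 0.05 (5.04% of all clones), and 0.57 in LD cells with 41 (2.34% of all clones). The larger values in HD cells thus rest on the labelled direction. Turning leaves the mean of both lines unchanged, so an excess over all clones in that mean largely stays by construction and is no separate support.

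Drug by drug, the median difference of the members between 12 and 24 h in the mean of both lines came to 0.66 for DMSO, 0.41 for HMBA and 0.63 for TSA (log2). Under DMSO 63 of 66 members were above 0 against 46.7% of all clones. Under HMBA 54 were, against 43.7%. Under TSA 58 were, against 47.1%. All of the drugs agreed on an increase in 48 members (14.8% of all clones) and on a decrease in 0 (22.1% of all clones). The increase held under all of the drugs in 49 members within HD cells (15.1% of all clones) and in 37 within LD cells (13.1% of all clones). With arrays 3 and 4 turned these numbers were 48 (15.6% of all clones) and 39 (12.1% of all clones). In 33 members it held in both lines under every drug, against 7.06% of all clones.

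The 13 members that could not be fitted lacked a pair of arrays in some condition and were described on the scale of the selection. On that scale 74 of all 79 members were higher at 24 h than at 12 h, against 45.1% of the 19817 clones. Under each of the drugs 50 of the 79 were, against 11.4%. Among the 13, 11 were higher in the mean over drugs, against 59.9% of the clones that could not be fitted. Only 2 of these 13 were higher under every drug, against 6.8%.

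The members also differed from other clones in brightness and in position, and the part of either in the result was not tested. Members were dim. Their mean log2 intensity had a median of 7.94 against 9.09 for all tested clones, and of 4 equal bins of the tested clones by brightness, the dimmest held 27 of the 66 members, the next ones 20 and 14, and the brightest 5. The median SD between the 4 arrays of a condition was 0.37 for members and 0.27 for all clones. In the dimmest bin 13 of 27 members were higher at 24 h under every drug, against 9.36% of all clones of that bin. In the next bin 17 of 20 were, against 12.5%. In the brighter bins 13 of 14 were, against 16.6%, and 5 of 5, against 20.7%. The bins were chosen after the data were seen.

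The selected clones were unevenly spread over both parts of the array, which had been deposited as separate files. Part 2 held 61 of the 79 members, 77.2%, against 45.8% of the 19817 clones. In part 2 the 6 to 36 h difference varied more over all tested clones (SD 0.46, log2) than in part 1 (SD 0.38). The increase between 12 and 24 h held under every drug in 14 of 17 members in part 1, against 16.5% of its clones, and in 34 of 49 in part 2, against 12.7%. The members came from 59 of 238 plates, with at most 5 on a plate, and 2 pairs sat in wells next to each other. On the arrays of 6 h a median of 94.3% of the members was listed, and at 36 h 96.8%, while for all clones with 12 conditions these shares were 98.6% and 97.2%.

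Clone H3031C12 had the largest difference between 6 and 36 h of all members on the scale of the selection, 3.29 in HD cells and 3.09 in LD cells. Its normalized log2 intensity in the mean of both lines under DMSO was 5.80 at 6 h, 6.12 at 12 h, 7.79 at 24 h and 9.32 at 36 h. Under HMBA it was 5.69, 5.49, 8.0 and 9.05 at the same times. Under TSA it was 6.23 at 6 h, 5.95 at 24 h and 8.44 at 36 h, and it lacked a pair of arrays at 12 h. It therefore stood near its starting level at 12 h under DMSO and HMBA, and under TSA still at 24 h. At 36 h under TSA its level was 9.34 in HD cells and 7.55 in LD cells. The LD value averages 7.13 and 7.19 on arrays 1 and 2 with 7.81 and 8.07 on arrays 3 and 4. The clone was not fitted.

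Clone H3136C07 had the largest estimate between 12 and 24 h of the fitted members, 1.79 (95% interval 1.13 to 2.45, log2), with an unadjusted p of 0.000298 and an adjusted p of 0.151 in limma. Under DMSO its level in the mean of both lines was 6.52 ± 0.25 at 6 h, 7.06 ± 0.16 at 12 h, 9.57 ± 0.25 at 24 h and 9.78 ± 0.31 at 36 h (SD of 4 technical arrays). Under HMBA it was 7.27 ± 0.29, 7.44 ± 0.44, 9.46 ± 0.49 and 9.74 ± 0.43. Under TSA it was 8.18 ± 0.26, 7.46 ± 0.18, 8.31 ± 0.13 and 9.06 ± 0.52. The clone was thus higher at 24 h than at 12 h under every drug by more than the SD of the arrays, and under TSA, where the level at 12 h was below that at 6 h, the step was the smallest of the 3.

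Over the 12 conditions, the members resembled each other to a varying degree. Pearson's r of the mean of both lines had a median of 0.69 (range -0.24 to 0.99) over the 2145 pairs of fitted members. All pairs share the 12 conditions, the arrays and the selection for a rise, so r is given as a description. The pair with the highest r, 0.993, was H3027E07 and H3027E09, which sit on the same plate and whose levels never differed by more than 0.32 (log2). This pair was singled out after its values were seen, and whether it holds cDNA of the same gene was not tested.

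**Figure D3:**
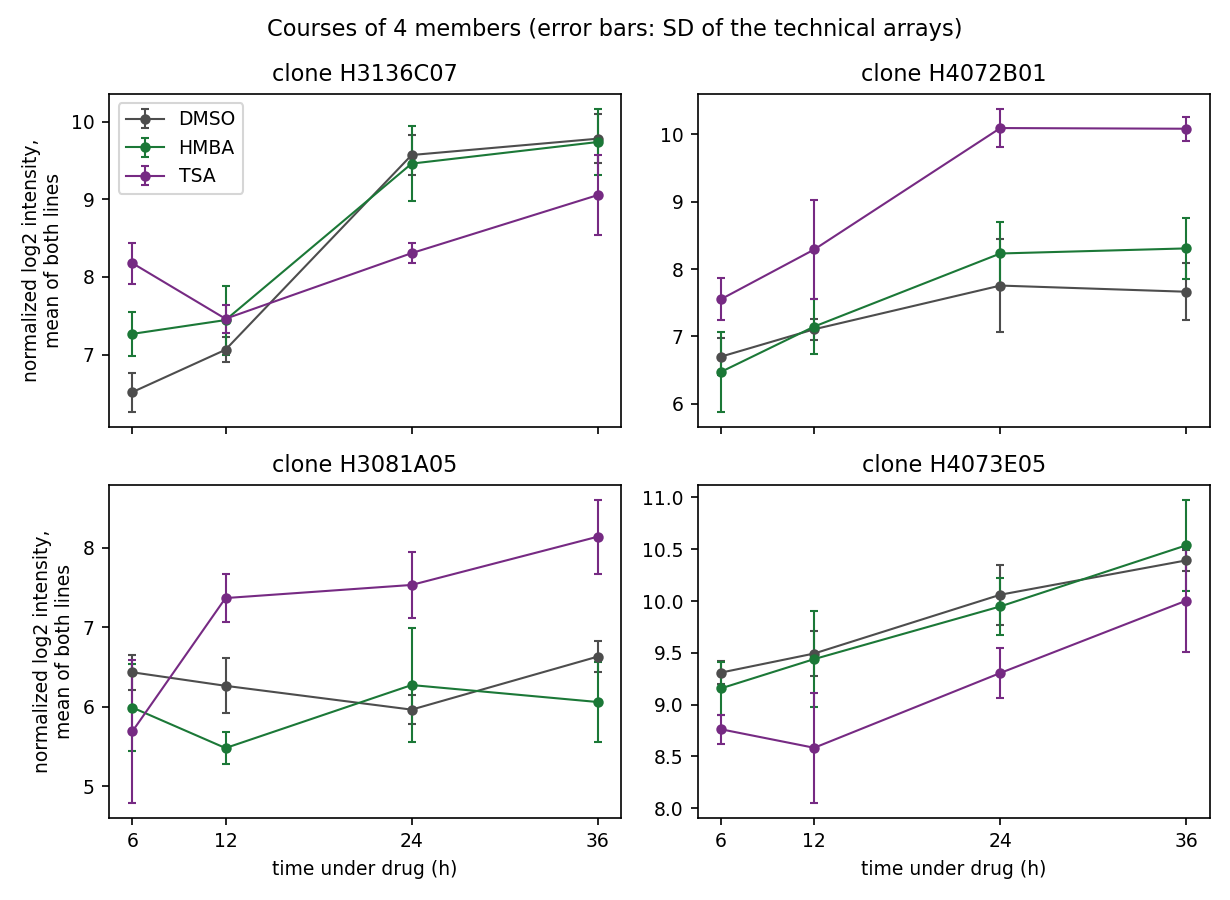
Normalized log2 intensity in the mean of both lines (vertical axis) against hours under drug (horizontal axis) for clones H3136C07, H4072B01, H3081A05 and H4073E05, by drug (DMSO grey, HMBA green, TSA purple). Points are means of the technical arrays of a condition and error bars their SD. In H4072B01 the TSA course reached 10.1 at 24 h, above the 7.76 of DMSO and the 8.23 of HMBA.

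Differences between drugs were tested at 12 and 24 h together, in the mean of both lines, since the selection had asked for an increase under every drug but not for like levels. Against DMSO, TSA gave higher levels in 12 members (6.34% of all clones) and lower levels in 2 (8.91% of all clones) at an adjusted p under 0.05 in limma. HMBA gave higher levels than DMSO in 5 members (2.77% of all clones) and lower levels in 0 (10.4% of all clones; 2 members at an unadjusted p under 0.05). TSA gave higher levels than HMBA in 5 members (3.95% of all clones) and lower levels in 2 (2.04% of all clones). The comparisons share samples: DMSO enters both of the first, TSA and HMBA each enter a pair.

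Over all 66 members, TSA minus DMSO had a median of 0.17, with 42 members above 0 against 52.4% of all clones. For HMBA minus DMSO it was -0.016 (0.13 with median centring), with 32 above 0 against 42.8%. For TSA minus HMBA it was 0.090, with 39 above 0 against 61.5%.

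These calls depended on single arrays and on the scaling. Without the fourth array of each condition the members called in either direction numbered 2 for TSA minus DMSO (3.14% of the clones fitted were called), 0 for HMBA minus DMSO (0%) and 0 for TSA minus HMBA (0.0177%). Without the first array they numbered 8 (8.33%), 1 (4.55%) and 1 (1.88%). With centring on the median in place of loess and quantiles there were 8 (7 higher, 1 lower; 9.96% of all clones called), 1 (higher; 5.29%) and 4 (4 higher, 0 lower; 2.07%).

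Clone H4072B01 had the largest called difference between drugs. Under TSA its level in the mean of both lines was 7.55 at 6 h, 8.29 at 12 h, 10.1 at 24 h and 10.1 at 36 h. Under DMSO the level was 6.70, 7.11, 7.76 and 7.66, and under HMBA 6.48, 7.15, 8.23 and 8.31. It was higher at 36 h than at 6 h under each drug, and higher under TSA than under the other drugs at each of the times. At 12 and 24 h TSA minus DMSO was 1.76 (95% interval 1.15 to 2.37, adjusted p = 0.00839 in limma) and TSA minus HMBA was 1.5 (0.89 to 2.12, adjusted p = 0.0254).

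Clone H3081A05 was higher under TSA than under both other drugs from 12 h on. Its level under TSA was 5.69 ± 0.90 at 6 h, 7.37 ± 0.30 at 12 h, 7.53 ± 0.42 at 24 h and 8.14 ± 0.46 at 36 h (SD of 4 arrays). Under DMSO it was 6.43, 6.26, 5.96 and 6.63, and under HMBA 5.99, 5.48, 6.27 and 6.06. Under DMSO and HMBA its levels at 6 and 36 h differed by less than the SD of some of those conditions' arrays. The selection, on its own scale, counted them as increases. On the normalized scale its level under HMBA went from 6.08 down to 5.90 in HD cells and from 5.90 up to 6.22 in LD cells. TSA minus DMSO was 1.34 (0.75 to 1.93, adjusted p = 0.0163 in limma) and TSA minus HMBA 1.57 (0.98 to 2.16, adjusted p = 0.0200).

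Clone H3027E07 was among the brightest members and stood higher under HMBA, and also under TSA, than under DMSO at every time. Its levels under DMSO were 10.2 at 6 h, 9.87 at 12 h, 10.8 at 24 h and 11.6 at 36 h. Under HMBA they were 11.1, 10.9, 11.9 and 12.6, and under TSA 11.7, 11.5, 11.7 and 12.7. At 12 and 24 h HMBA minus DMSO was 1.06 (0.53 to 1.59, adjusted p = 0.0294 in limma). H3027E09 gave 0.93 (0.43 to 1.43, adjusted p = 0.0335) in the same comparison. At 6 h, too, both clones stood lower under DMSO than under the other drugs, and from 12 to 24 h H3027E07 went from 11.5 to 11.7 under TSA and from 9.87 to 10.8 under DMSO.

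The 2 members with lower levels under TSA than under DMSO were H4070G10 and H4073E05, of which H4070G10 is named after its values were seen. H4073E05 stood under DMSO at 9.31, 9.49, 10.1 and 10.4 in the order of the times, under HMBA at 9.16, 9.44, 9.95 and 10.5, and under TSA at 8.76, 8.58, 9.31 and 10.0. The increase was present under each drug and the TSA course ran below the others at every time. At 12 and 24 h TSA minus DMSO was -0.83 (-1.21 to -0.46, adjusted p = 0.0173 in limma) in H4073E05. In H4070G10 it was -1.15 (-1.53 to -0.77, adjusted p = 0.00703). Against HMBA, with the same TSA samples, H4073E05 gave -0.75 (adjusted p = 0.0426) and H4070G10 gave -0.88 (adjusted p = 0.0296). H4070G10 was dim, between 4.92 and 6.71 in the mean of both lines over the conditions. Its SD between technical arrays was up to 0.79. Under TSA only 3 arrays held a value at 12 h and only 3 at 24 h, so each time 1 array alone stood for its pair.

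Averaged over the 6 conditions at 12 and 24 h, the members' log2(HD/LD) had a median of 0.11 (range -0.67 to 0.41), with 46 of 66 above 0 against 44.7% of all clones. With arrays 3 and 4 turned the median was -0.0025, with 33 above 0 against 46.9%. At an adjusted p under 0.05 in limma, 6 members were higher in HD cells (2.2% of all clones) and 5 lower (0.99% of all clones). In 5 members HD was above LD in all 6 conditions (4.39% of all clones), and in 5 it was below in all 6 (3.1% of all clones). Turned, these numbers were 2 (14.3% of all clones) and 5 (18.3% of all clones). With arrays 3 and 4 turned, 2 members were called higher (12.4% of all clones) and 5 lower (17.4% of all clones), and only 1 of the 11 members called in the labelled direction was among them. With median centring 0 were called higher (0.0757% of all clones) and 1 lower (0.114%).

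The count of called members also changed with single drugs and arrays. It was 2 without DMSO (0.395% of all clones called), 2 without HMBA (0.406%) and 5 without TSA (1.7%). It was between 5 (without the first array of each condition; 0.985% of the clones fitted) and 9 (without the second; 2.47%) when an array number was left out.

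Clone H4046D12 had the lowest ratio, -0.67 (95% interval -0.83 to -0.51, adjusted p = 5.83e-13 in limma). As for every ratio here, the interval and p-value use an error common to all clones, whatever the clone's own spread between conditions. Its log2(HD/LD) was -0.78 and -0.27 under DMSO at 12 and 24 h, -1.20 and -0.39 under HMBA, and -0.81 and -0.56 under TSA. At 12 h under HMBA only 3 arrays held a value, so array 1 (HD 6.24, LD 7.74) alone stood for its pair. The clone was thus below 0 in each of the 6 conditions. Its level in HD cells under TSA was 7.68 at 6 h and 9.36 at 36 h, and in LD cells 8.59 and 9.55. H4019B10 had a ratio of -0.54 (-0.70 to -0.38, adjusted p = 2.85e-08 in limma), with conditions between -0.80 and -0.21. Turned, H4046D12 stood at -0.051 (adjusted p = 0.671) and H4019B10 at 0.092 (adjusted p = 0.370), so neither was called. A ratio on which both pairs of arrays agree as labelled cancels when turned, so these lost calls do not tell which direction is right.

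Clone H4039A07 had the highest ratio, 0.41 (0.25 to 0.58, adjusted p = 0.000135 in limma). It was -0.08 under DMSO at 12 h and 0.41 at 24 h, 0.34 and 0.48 under HMBA, and 0.16 and 1.16 under TSA. The clone was thus above 0 in 5 of the 6 conditions. At 36 h under TSA its level was 10.2 in HD cells and 8.62 in LD cells. The LD value averages 7.23 and 7.73 on arrays 1 and 2 with 9.97 and 9.54 on arrays 3 and 4. In HD cells the arrays lay between 9.83 and 10.4, so the size of this line difference depended on the pair of arrays. The 48 members listed on every array showed a like split under TSA at 36 h. Their LD medians were 8.96 and 9.07 on arrays 1 and 2 and 9.94 and 9.75 on arrays 3 and 4. Their HD medians lay between 9.76 and 10.0. H4039A07 kept its call with arrays 3 and 4 turned (0.35, adjusted p = 0.0332). A turned value so close to the labelled one means that arrays 3 and 4 held little of this ratio. Under TSA at 24 h, HD was 8.75 and 9.35 and LD 7.09 and 6.42 on arrays 1 and 2. On arrays 3 and 4, HD was 9.31 and 8.75 and LD 9.13 and 8.88. Under DMSO at 12 and 24 h arrays 3 and 4 gave the higher ratios. The kept call is thus no sign that both pairs of arrays agreed. H4027G12 had a ratio of 0.32 (0.16 to 0.49, adjusted p = 0.00780 in limma), between 0.11 and 0.66 in the 6 conditions, and 0.13 (adjusted p = 0.253) when turned.

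**Figure D4:**
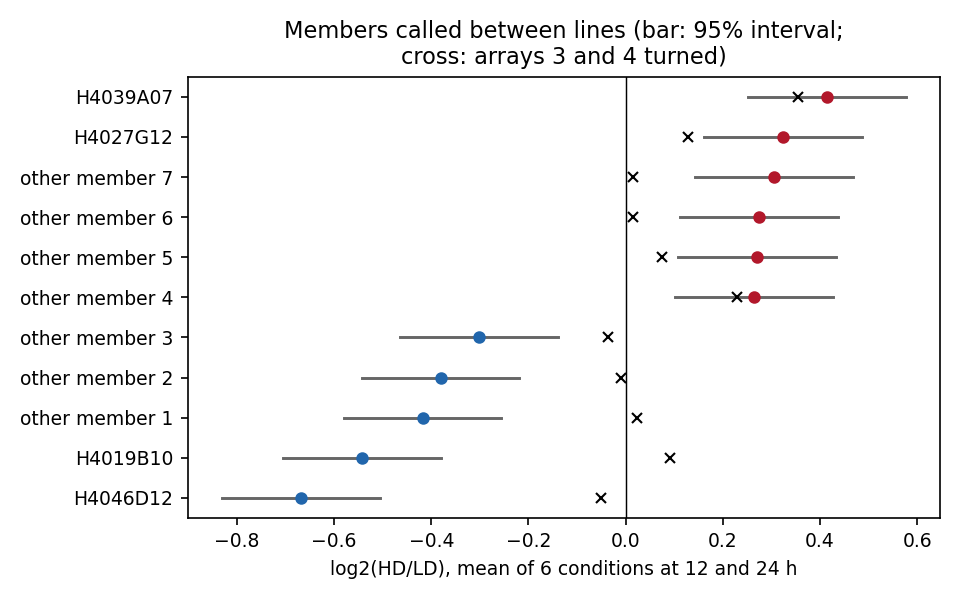
log2(HD/LD) averaged over the 6 conditions at 12 and 24 h (horizontal axis) for the 11 called members (rows). Points are estimates (red above 0, blue below 0), bars their 95% intervals, and crosses the estimates with arrays 3 and 4 turned. H4046D12 moved from -0.67 to -0.051 when turned, and H4039A07 from 0.41 to 0.35.

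Whether the step from 12 to 24 h differed between lines was tested on the ratio of HD to LD. HD minus LD of this difference had a median of 0.17 over the members (range -0.18 to 0.57, log2; -0.016 over all clones). It was above 0 in 52 of 66 members against 45.5% of all clones. In limma 0 members were called higher (0.027% of all clones) and 0 lower (0.0216% of all clones). At an unadjusted p under 0.05, 13 were higher against 3.38% of all clones and 0 were lower against 2.04%. The median 95% interval of a member was 0.32 to either side. With arrays 3 and 4 turned the median was -0.035, with 28 of 66 above 0, so the direction of the median rests on the labelled direction of those arrays.

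Between 6 and 36 h the selection fixed a like rise of both lines only in the mean over drugs. The values within single drugs describe arrays that the selection used. Since the rule held the mean over the drugs near 0, a value above 0 under a drug goes with lower ones under the others, and nothing is read from the shares of all clones beside them. Under DMSO the rise in HD cells minus that in LD cells had a median of -0.26 (log2), and it was above 0 in 11 of 66 members (31 with arrays 3 and 4 turned; 50% of all clones). Under HMBA the median was -0.069, with 26 above 0 (31 turned; 51.2% of all clones). Under TSA it was 0.56, with 56 above 0 (55 turned; 49.2% of all clones). Most members stayed above 0 under TSA when turned, since arrays 3 and 4 held less of this difference than arrays 1 and 2. Under DMSO both pairs shared the difference as labelled, so it largely cancelled when turned. The turned counts therefore do not tell which of these differences is the firmer.

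Both pairs of arrays gave the same sign with different sizes. Under TSA arrays 1 and 2 gave a median of 0.90 and arrays 3 and 4 one of 0.20, while turning the latter gave 0.32. Under DMSO it was -0.29 and -0.22, and turning gave -0.014. Under HMBA it was -0.082 and -0.062, and turning gave -0.017. As levels, the members' median log2 intensity under TSA went from 7.42 at 6 h to 9.29 at 36 h in HD cells and from 7.67 to 8.69 in LD cells. Under DMSO it went from 6.99 to 8.33 in HD cells and from 7.22 to 8.77 in LD cells. Between 12 and 24 h, on arrays the selection did not use, HD minus LD of the step had a median of 0.12 in DMSO, 0.18 in HMBA and 0.19 in TSA. With arrays 3 and 4 turned these medians were -0.13, -0.027 and 0.086.

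**Figure D5:**
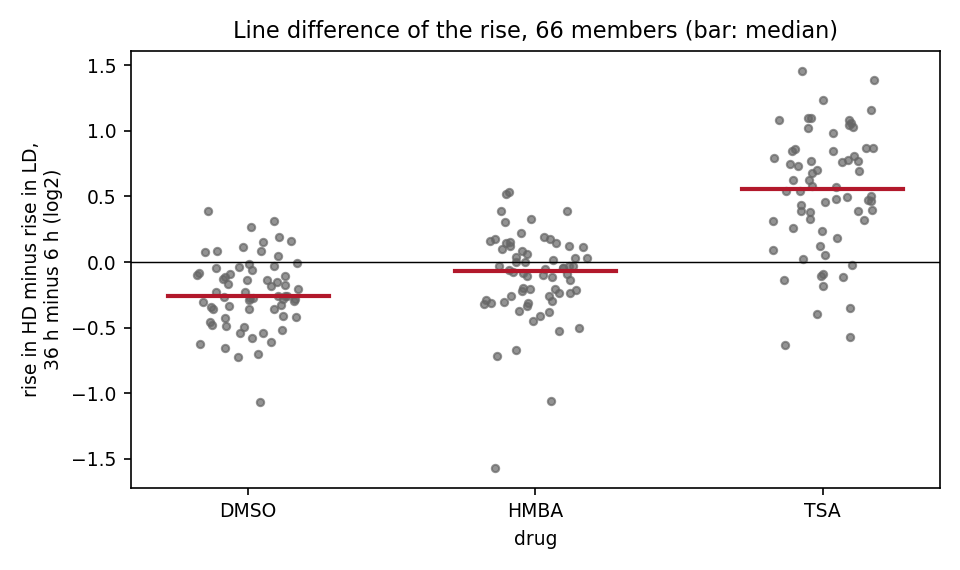
Rise from 6 to 36 h in HD cells minus that in LD cells (vertical axis, log2) for each of the 66 fitted members, by drug (horizontal axis). Each point is 1 member, spread sideways for legibility, and bars are medians, which stood at -0.26 for DMSO, at -0.069 for HMBA and at 0.56 for TSA.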

How the data were processed

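RNA of both lines had been hybridised on 48 two-colour cDNA arrays. The authors deposited, per the file headers, an intensity for control (LD) and an intensity for target (HD) RNA per clone, in 2 files per array. No background column was given, and the choice of listed clones and any correction of intensities are not given in the sources used here. A table of log2 ratios, also deposited, served as an alternative (r 0.991 to 0.999 with the ratios computed here, slopes 0.978 to 0.998, column medians -0.040 to 0.021, hence log2 of target over control). Its normalization was not given in the sources used here.

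Members were found with the rule stated above. The members and all lists were chosen with earlier results of these data known. For the tests, log2 ratios were normalized by loess (span 0.3) within each part of each array, and mean log2 intensities were quantile-normalized between arrays within each part. A condition's value was the mean of arrays 1 and 2 averaged with that of arrays 3 and 4. Drug and time were fitted additively to the 6 conditions at 12 and 24 h for all 18494 clones in limma 3.58.1 under R 4.3.3 (2 residual degrees of freedom), with Benjamini-Hochberg adjustment over all clones. P-values measure the spread between conditions, each of 1 pair of RNA samples. No new cultures were compared. The number of arrays limits the precision. For ratios, empirical Bayes gave all clones 1 common error, so a clone's own spread between conditions did not set its interval or p-value.

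Deviations of the ratios on same-numbered arrays of different conditions correlated at no less than 0.23 for each number. For the mean intensities the median of these correlations lay between -0.061 and 0.081 by number. Arrays of different numbers were not compared. The check thus cannot tell pairing by number from a trait shared by arrays 1 and 2 or by arrays 3 and 4. On simulated data for the 12 to 24 h test, over 18494 clones, 69 of 100 differences of 1 and 99 of 100 differences of 2 (log2) were called, with 10 false calls. The simulated noise was independent between clones and conditions. No simulated difference was as small as the members' median of 0.57, so these counts do not show how many members the test could call.

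Clones are named by their IDs: the members with the largest differences from 6 to 36 h, the called members with the largest differences of ratio or between drugs, and up to 2 per direction printed. The gene lists prepared could not be used without gene names. The search for the most similar pair and the split by brightness were added after seeing the data. Alternatives were median centring, all 12 conditions, the technical arrays as units with the condition as a random block, each array number or drug left out, the dimmest of 4 brightness bins left out, arrays 3 and 4 turned and the authors' table.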

Additional observations from a re-analysis of the deposited data

Results flagged for a closer look

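Among 195 sets of 4 technical arrays looked at for the members named above and for the median of the members, 15 held an array far from the other 3, against 9.75 that chance gives at 5 percent. All values are normalized log2 intensity in the mean of both lines unless stated. The median of the members on the third DMSO array at 24 h was 8.63, below the 8.87 to 8.92 of the others. That array bears on the 12 to 24 h comparison, and leaving out the third array of each condition changed the members' median difference to 0.58 from 0.57.

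Arrays below the others of their set were the fourth DMSO array at 12 h for H4039A07 (6.74 against 7.86 to 7.92), the third TSA array at 6 h for H4027G12 (8.15 against 8.68 to 8.72) and the fourth DMSO array at 36 h for H4046D12 (7.97 against 8.66 to 8.74). The same held for the second DMSO array at 24 h for H4019B10 (9.09 against 9.41 to 9.47) and the third DMSO array at 12 h for H4072B01 (6.87 against 7.15 to 7.21).

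Arrays above the others were the third DMSO array at 6 h for H3136C07 (6.89 against 6.35 to 6.43), the fourth DMSO array at 24 h for H4027G12 (8.95 against 8.60 to 8.66) and, for H4046D12, the first DMSO array at 24 h (8.76 against 8.02 to 8.13) and the fourth TSA array at 24 h (9.09 against 8.57 to 8.64). Further cases were the second HMBA array at 6 h for H4019B10 (8.53 against 7.66 to 7.78), the first HMBA array at 12 h for H3081A05 (5.78 against 5.35 to 5.41), the third HMBA array at 36 h for H3027E07 (13.6 against 12.1 to 12.4) and the third HMBA array at 12 h for H3027E09 (11.4 against 10.7 to 10.8).

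The log2 ratio of H4046D12 on the second HMBA array at 36 h was -1.61, below the -1.10 to -1.01 of the others.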

How the results depend on the processing

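The 12 to 24 h difference of the members kept its direction in every alternative run, with a median between 0.49 and 0.67 (log2) in the mean of both lines. The number of members called higher was 0 with median centring, with all 12 conditions, without the dimmest of 4 brightness bins, without DMSO and without TSA. Without HMBA it was 18 in the mean of both lines (0.319% of all clones), 22 in LD cells (0.649%) and 0 in HD cells (0%). Without single array numbers it was 0 to 3 in the mean of both lines, 0 to 2 in HD cells and 0 to 1 in LD cells. With the technical arrays as units and the replicate block (condition as a random block), the number was 31 in the mean of both lines (1.84% of all clones), 36 in HD cells (2.4%) and 7 in LD cells (0.227%). In these fits the arrays of a condition share RNA, and deviations of same-numbered arrays were alike throughout in the ratios only. For HD over LD, 11 members were called. The count was 10 in the fit with the block (6 of the 11 among them), 12 from the authors' deposited table (11), 1 with median centring (1), 2 without DMSO (2), 2 without HMBA (2), 5 without TSA (5), 7 with arrays 3 and 4 turned (1) and 5 to 9 without single array numbers. Members called between drugs numbered 5 for HMBA minus DMSO, with 1 under median centring, 12 under the replicate block (28.9% of all clones called) and 0 to 6 without single array numbers. For TSA minus DMSO there were 14, and 8, 22 (32.3%) and 2 to 12 in the same order. For TSA minus HMBA there were 7, and 4, 15 (21.5%) and 0 to 9. The rule itself gave 122 members with arrays 3 and 4 turned (54 shared with the 79), 70 after loess and quantile normalization (49 shared), 62 to 118 without single array numbers (40 to 68 shared) and 40 without the dimmest bin. Among named clones, the ratio turned to 0.092 in H4019B10 and to 0.023 in H4072B01 with arrays 3 and 4 turned, and the 12 to 24 h difference of H3081A05 to -0.067 without HMBA. The cause of these changes was not tested. Of the fitted members 27 of 66 lay in the dimmest bin, and 13 of 79 were not fitted.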
